A study of Mus musculus with 18 samples.

Results

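Hepatic stellate cells (HSC) of the mouse were compared after 7 days of culture alone in Matrigel with HSC taken directly after isolation, which are called day 0. The comparison rested on 6 libraries, 3 in each group, of the 18 libraries and 6 groups in the series, and on all genes of the raw count table. Of the 35667 genes in that table, 17020 had enough counts to be tested. The HSC came from healthy wild-type mice, per the series design, and the labels give no strain, sex or age. Cells of the 3D cultures were sorted after 7 days, and the gate is not given. Time in culture, the gel and the handling of the cells differed together between the groups. Their parts in the changes below cannot be told apart and were not tested. The labels list for every group a medium with serum that carried EGF, FGF10, HGF, RSPO3, gastrin, nicotinamide and N-acetylcysteine, and give no treatment for the day 0 cells. Intrahepatic cholangiocyte organoids (ICO) with a dTomato tag, grown alone in Matrigel for 7 days, gave 3 further libraries that were used only as a measure of epithelial transcripts. The 3 Matrigel libraries are named Matrigel 1, 2 and 3. The labels do not say whether replicate libraries stem from different mice or cultures. The p-values therefore measure only a spread between libraries, which may be technical. That spread was estimated over all 12 HSC libraries of the series, with those from plastic and co-culture included.

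HSC are the pericytes of the liver sinusoid. In a healthy liver they are quiescent, store retinyl esters made by Lrat in lipid droplets and secrete factors such as Hgf. After injury, or on stiff plastic, they lose these stores, enter the cell cycle and become contractile, matrix-producing myofibroblasts marked by Acta2 and Timp1. Matrigel is a soft basement-membrane gel rich in laminin and collagen IV.

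Total counts were 12820644, 12858514 and 15973353 in Matrigel 1, 2 and 3, and 16844657, 19206265 and 18844480 in the 3 day 0 libraries. Levels are given as CPM, library-scaled counts after TMM normalisation, and are not divided by gene length, so levels of different genes are not compared. Transcripts of the mitochondrial genome took 5.37%, 8.60% and 5.07% of counts in Matrigel 1, 2 and 3 and 3.91% to 4.80% at day 0. The labelled cell type was checked against 30 genes of stellate identity, which summed to 36070.0, 49728 and 63503 CPM in Matrigel 1, 2 and 3, 131410.0, 124830.0 and 115850.0 CPM at day 0 and at most 619 CPM in the organoids. None of the 30 was at 0 in any of these HSC libraries.

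Of the 17020 genes tested, 6946 differed between Matrigel and day 0 at an adjusted p under 0.05, which is 40.8%. Of these, 3279 were higher in Matrigel (19.3%) and 3667 lower (21.5%), and the median log2 change over all genes tested was 0.09. The change was at least 8-fold for 681 of the increases and 908 of the decreases. The 3 Matrigel libraries did not overlap the 3 day 0 libraries for 9534 genes (56%), and 3074 of the called increases and 3641 of the called decreases were of this kind. These shares are the background against which each gene group below is read. The bar chart of gene groups sets them side by side. Genes of mitosis, of the ATF4 and serine synthesis programme and of cholesterol synthesis were mostly higher in Matrigel, and interferon-stimulated, heat shock, immediate early and endoplasmic reticulum (ER) chaperone genes were mostly lower.

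**Figure D1:**
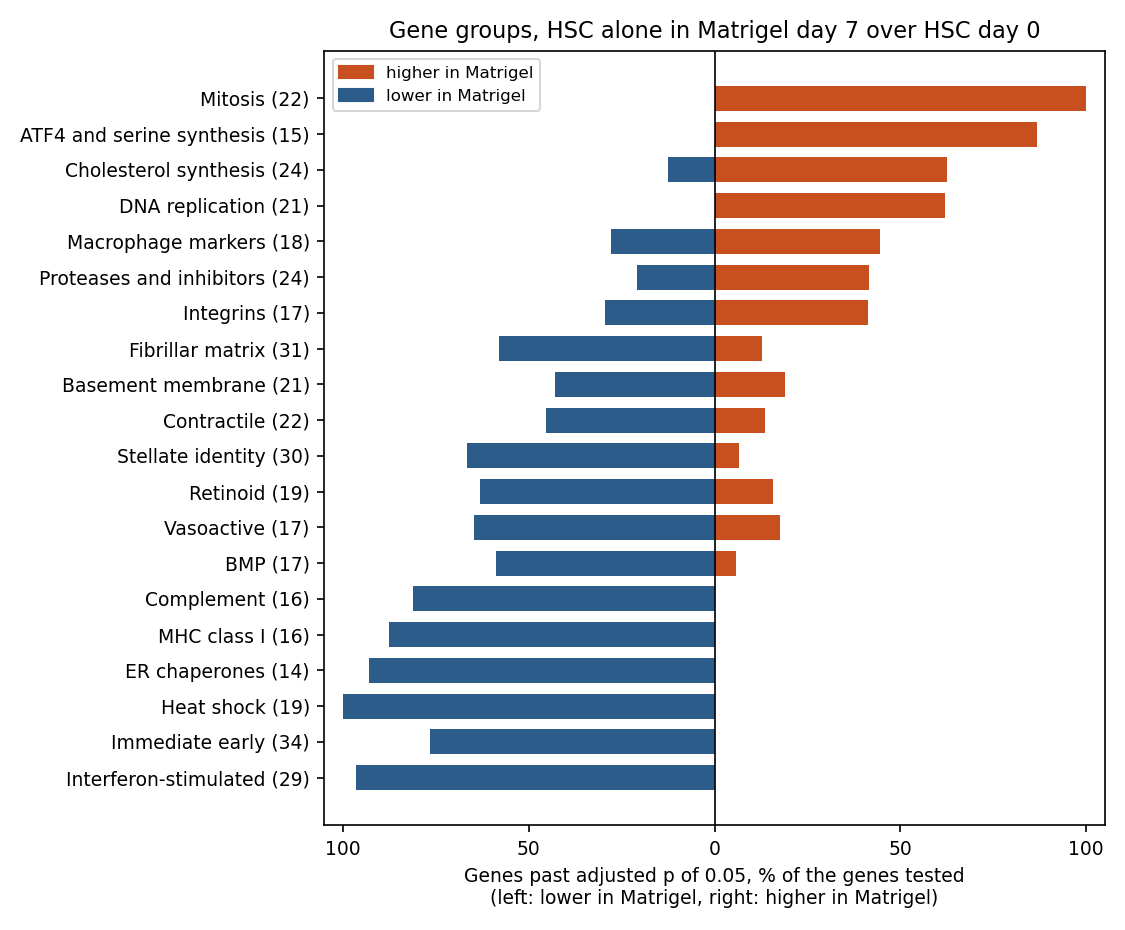
Share of the tested genes of 20 gene groups that passed an adjusted p of 0.05 in HSC alone in Matrigel at day 7 over HSC at day 0, with the number tested in brackets; bars to the right are genes higher in Matrigel and bars to the left genes lower in Matrigel. All 22 mitosis genes were higher and all 19 heat shock genes lower.

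Epithelial transcripts were present in each Matrigel library, at levels that differed between libraries, although the labels place these HSC apart from organoids. In bulk libraries, here and below, fewer cells of a type and less RNA per cell cannot be told apart. Epcam (ENSMUSG00000045394), an adhesion protein of bile duct epithelium, had 374, 149 and 39.5 CPM in Matrigel 1, 2 and 3, against 0.157, 0.681 and 0.274 CPM at day 0. Its mean in the organoids was 1088 CPM. Krt19, a keratin of bile ducts, had 447, 166 and 14.1 CPM in Matrigel 1, 2 and 3, against 5.73, 4.36 and 5.42 CPM at day 0, and 1425 CPM on average in the organoids. Both genes were highest in Matrigel 1 and lowest in Matrigel 3, and the day 0 values lay below all 3. In Matrigel 3 taken alone, with its spread taken from the other HSC groups, Krt19 did not pass (log2 change 1.46, adjusted p = 0.0692, against 5.33 as reported). Over 15 cholangiocyte genes with at least 100 CPM in the organoids and under 5 CPM in every day 0 library, the median level was 34.3%, 12.9% and 4.19% of the organoid level in Matrigel 1, 2 and 3, against 0.189% to 0.270% in the day 0 libraries. Of the 28 cholangiocyte markers tested, 26 were higher in Matrigel and none lower, with a median log2 change of 5.32. The exceptions were Spint2, a protease inhibitor, and Cldn3, a tight junction protein. In Matrigel 3 alone, 17 were called higher. Keratinocyte-type stress genes were also higher, 7 of 9 tested (median log2 change 8.02). Sprr1a, a cornified envelope protein of a family of close copies, had 62.9, 40.3 and 0.168 CPM in Matrigel 1, 2 and 3, against 0, 0 and 0 CPM at day 0. Sprr1a was not called with the epithelial level of each library as a covariate (adjusted p = 0.0702). Its value in Matrigel 3 was near 0, and the squamous count was 0 in Matrigel 3 alone.

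Sox9, a transcription factor of bile duct and progenitor cells that is also made by activated HSC, did not follow the other epithelial genes. It had 58, 50.6 and 52.6 CPM in Matrigel 1, 2 and 3, against 0.471, 1.57 and 1.37 CPM at day 0, and rose by 5.54 ± 0.51 (log2, adjusted p = 7.05e-06). The organoid profile, weighted by each library's epithelial level, was also subtracted, with negative counts set to 0. The increase then no longer passed (log2 change 5.13, adjusted p = 0.121). Matrigel 1 was set to 0 there, since Sox9 lay below that library's median level of 34.3%. The 3 Matrigel values lay within 25.4% to 29.1% of the organoid level, while the other 14 cholangiocyte genes reached at most 7.18% of it in Matrigel 3. Spp1 (osteopontin), a secreted protein of bile ducts, macrophages and activated HSC, had 3344, 1217 and 1052 CPM in Matrigel 1, 2 and 3, against 22.8, 24.2 and 22.4 CPM at day 0. Its values in Matrigel 2 and 3 were close to each other, unlike those of Krt19.

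**Figure D2:**
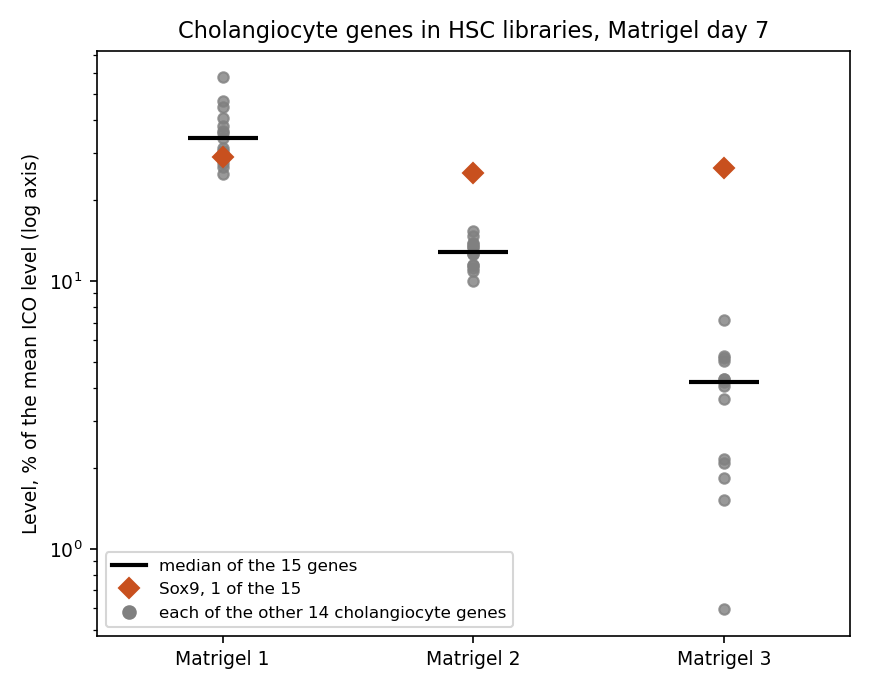
Level of 15 cholangiocyte genes in each HSC library from Matrigel at day 7, as a percentage of the mean level in organoids grown alone (log axis); grey points are single genes, black lines the median (34.3%, 12.9% and 4.19%) and orange diamonds Sox9. Sox9 is at 29.1%, 25.4% and 26.4%, whereas the other genes are lower from library to library.

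The increases were therefore split by the organoid level. Of the 3279 genes higher in Matrigel, 1398 (42.6%) were lower in every Matrigel library than in every organoid library, and 1034 (31.5%) were higher in every Matrigel library than in every organoid library. Among all genes tested these shares were 31.0% and 35.2%. Of the 681 increases of at least 8-fold, 427 were below and 122 above the organoid level. Among increases with at least 10 CPM in Matrigel, the commonest orders below the organoid level were Matrigel 1, then 2, then 3 for 473 genes, and Matrigel 1, then 3, then 2 for 256 genes. Above the organoid level the commonest order was the reverse, Matrigel 3, then 2, then 1, for 231 genes. When the organoid profile was subtracted from the counts in this way, 1783 genes were called higher and 3344 lower. Counts that the subtraction made negative were set to 0. Log2 changes after it, here and below, can rest on such values and do not always give the size of a change. Epcam was not above the part subtracted in Matrigel 1, Matrigel 3 or any day 0 library. Its log2 change of 8.54, against 8.91 as reported, rested on Matrigel 2 and no longer passed (adjusted p = 0.221). What share of each increase came from epithelial RNA was not tested.

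Genes of the interferon response were lower in Matrigel in nearly the whole group. Interferons signal through Irf9 and its partners to a promoter element, the ISRE, and switch on antiviral genes such as Ifit1 and Isg15. Of 29 interferon-stimulated genes tested, 28 fell and none rose, against 21.5% of all genes lower, with a median log2 change of -2.77. Ifit1 (ENSMUSG00000034459), which binds viral RNA, had 4.81, 9.3 and 12.8 CPM in Matrigel 1, 2 and 3, against 245, 261 and 238 CPM at day 0. It fell by 4.77 ± 0.35 (log2, adjusted p = 7.38e-07). Ifit3, its partner in the same complex, had 8.76, 9.82 and 20.3 CPM in Matrigel 1, 2 and 3, against 249, 264 and 260.2 CPM at day 0 and fell by 4.29 ± 0.32 (log2, adjusted p = 8.42e-07). For both genes all day 0 values were more than 10 times every Matrigel value.

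Isg15, a ubiquitin-like modifier, had 4.01, 4.94 and 6.94 CPM in Matrigel 1, 2 and 3, against 60.3, 53.2 and 64.6 CPM at day 0 and fell by 3.47 ± 0.27 (log2, adjusted p = 3.9e-07). Irf7, a transcription factor that amplifies the response, had 20.7, 21.4 and 27.2 CPM in Matrigel 1, 2 and 3, against 127, 124 and 128 CPM at day 0. In both of these genes, which were chosen after their values were seen, the libraries of the groups did not overlap. Oas3 was the member that did not pass the test (adjusted p = 0.253). The number of members lower was 27 after subtraction of the organoid profile and 27 in Matrigel 3 alone. The organoid mean of Ifit1 was 3.59 CPM, below every HSC library. Reads of Ifit3 may be divided with its near-identical copy Ifit3b.

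Related groups moved the same way. All of the 14 called genes among 16 of MHC class I antigen presentation were lower, and B2m, the light chain of the complex, had 3672, 4138 and 5385 CPM in Matrigel 1, 2 and 3, against 13510.0, 12938 and 12149 CPM at day 0. Irf1, an interferon-induced transcription factor, had 145, 115 and 152 CPM in Matrigel 1, 2 and 3, against 1706, 1732 and 1744 CPM at day 0 and fell by 3.65 ± 0.20 (log2, adjusted p = 1.99e-08). The chemokine Cxcl10, which attracts T cells and is induced by interferon gamma, had 10.7, 7.78 and 17.6 CPM in Matrigel 1, 2 and 3, against 708, 684 and 731 CPM at day 0. It fell by 5.86 ± 0.47 (log2, adjusted p = 3.34e-06). Tgtp2, a T-cell-specific GTPase induced by interferon, had 26.9, 28.3 and 50.6 CPM in Matrigel 1, 2 and 3, against 706, 728 and 703 CPM at day 0. All 3 genes were lower in every Matrigel library than in every day 0 library.

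The stretch of promoter that carries the ISRE is shown for 3 of these genes, because 53.8% of the promoters found for this group hold it. The sequences are from RefSeq on the build GRCm38.p6, read 5′ to 3′ on the strand of the gene, and lie within the 250 bases before its start; capitals mark matches to GAAA, any 2 bases and GAAA, on either strand. Ifit1 is at chr19:34640770-34640828 (plus strand), Ifit3 at chr19:34583358-34583431 (plus strand) and Isg15 at chr4:156200860-156200911 (minus strand).
Ifit1: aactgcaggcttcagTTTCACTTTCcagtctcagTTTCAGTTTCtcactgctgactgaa
Ifit3: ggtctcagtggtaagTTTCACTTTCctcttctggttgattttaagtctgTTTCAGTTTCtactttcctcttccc
Isg15: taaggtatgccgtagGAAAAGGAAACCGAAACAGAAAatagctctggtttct
Ifit1 and Ifit3 hold 2 matches each, and Isg15 holds 3 that overlap one another. Promoters were found for 23 of the 30 interferon genes, some with several starts, and 14 of 26 such promoters held the motif (53.8%), against 2.98% of all 32851 mouse promoters in the table. These matches describe the letters of the window and do not show binding. The motif was added after the values were seen.

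Immediate early genes, which respond within minutes to growth factors or stress, were also lower. Of 34 tested, 26 fell and none rose, with a median log2 change of -2.37. Fos (ENSMUSG00000021250), a subunit of the AP-1 transcription factor, had 931, 758 and 879 CPM in Matrigel 1, 2 and 3, against 8505, 8337 and 7667 CPM at day 0, and fell by 3.25 ± 0.29 (log2, adjusted p = 1.39e-06). Egr1, a zinc finger factor induced by serum, had 194, 129 and 269 CPM in Matrigel 1, 2 and 3, against 1955, 1711 and 1706 CPM at day 0 and fell by 3.17 ± 0.24 (log2, adjusted p = 2.6e-07). The day 0 libraries were tight and lay far above the Matrigel libraries in both genes. Jun, the partner of Fos, had 407, 382 and 558 CPM in Matrigel 1, 2 and 3, against 4954, 4717 and 4543 CPM at day 0. Dusp1, a phosphatase that switches off stress kinases, had 468, 542 and 769.9 CPM in Matrigel 1, 2 and 3, against 4943, 5013 and 4533 CPM at day 0. Jun and Dusp1, chosen after their values were seen, showed no overlap either. The group summed to 4528, 3879 and 5225 CPM in Matrigel 1, 2 and 3, against 36170.0, 34936 and 32920.0 CPM at day 0. The count of 26 was 22 in Matrigel 3 alone. The members that did not pass included Srf, the factor that drives many of the others, and Klf10.

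Atf3, a stress-induced factor of the same family, had 199.8, 125 and 101 CPM in Matrigel 1, 2 and 3, against 1294, 1347 and 1407 CPM at day 0. It fell by 3.25 ± 0.36 (log2, adjusted p = 2.41e-05), and the groups did not overlap. Its log2 change after subtraction of the organoid profile was -5.12, with Matrigel 1 set to 0. Myc, a growth regulator, fell by less, 0.72 ± 0.17 (log2, adjusted p = 0.00343). After subtraction Myc was also set to 0 in Matrigel 1, and its decrease no longer passed (log2 change -1.85, adjusted p = 0.197). That value does not give the size of the decrease. The cyclic AMP element (CRE, TGACGTCA) was present in 4 of 36 immediate early promoters, 11.1% against 1.55% of all promoters, and the AP-1 motif (TGANTCA) in 1, 2.78% against 6.75%.

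Chaperones fell in both cell compartments that were examined. All 19 heat shock genes tested were lower, with a median log2 change of -1.59. Hspa1a, the inducible Hsp70, had 41.7, 28.6 and 19.9 CPM in Matrigel 1, 2 and 3, against 327, 326 and 316 CPM at day 0 and fell by 3.43 ± 0.28 (log2, adjusted p = 1.22e-06). Dnajb1, its Hsp40 partner, had 64.9, 58 and 57.2 CPM in Matrigel 1, 2 and 3, against 507, 479 and 530.5 CPM at day 0 and fell by 3.07 ± 0.15 (log2, adjusted p = 6.07e-09). Reads of Hspa1a may be divided with its near-identical copy Hspa1b. Hspa8, the constitutive Hsp70, chosen after its values were seen, had 2253, 1696 and 1886 CPM in Matrigel 1, 2 and 3, against 6859, 6798 and 6684 CPM at day 0. In all 3 genes the Matrigel libraries lay below the day 0 libraries. The heat shock element, searched as GAA, TTC and GAA with any 2 bases between each and also added after the values were seen, was found in 2 of 21 promoters of the group (9.52%), against 0.466% of all.

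Of 14 ER chaperone and unfolded protein response genes, 13 were lower and none higher, in the whole comparison, after subtraction of the organoid profile and in Matrigel 3 alone. Hspa5 (BiP), the main ER chaperone, had 946, 757 and 987 CPM in Matrigel 1, 2 and 3, against 3495, 3508 and 3479 CPM at day 0 and fell by 1.96 ± 0.18 (log2, adjusted p = 1.5e-06). Dnajb9, its co-chaperone, had 88.6, 80.4 and 104 CPM in Matrigel 1, 2 and 3, against 327, 339 and 329.7 CPM at day 0 and fell by 1.86 ± 0.17 (log2, adjusted p = 1.5e-06). Pdia3, a disulfide isomerase chosen after its values were seen, had 626, 559 and 632 CPM in Matrigel 1, 2 and 3, against 1729, 1828 and 1713 CPM at day 0. The groups did not overlap in any of the 3.

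All 22 mitosis genes were higher in Matrigel, against 19.3% of all genes higher. The median log2 change was 3.26, and the range was 2.32 to 5.61. Mki67 (ENSMUSG00000031004), a marker of cycling cells, had 24.9, 13.3 and 11.8 CPM in Matrigel 1, 2 and 3, against 1.57, 2.11 and 1.72 CPM at day 0 and rose by 3.20 ± 0.32 (log2, adjusted p = 4.36e-06). Cdk1, the kinase that drives entry into mitosis, had 53, 28.2 and 22.5 CPM in Matrigel 1, 2 and 3, against 6.75, 7.62 and 6.31 CPM at day 0 and rose by 2.32 ± 0.28 (log2, adjusted p = 2.85e-05). Both genes were higher in every Matrigel library than in every day 0 library. Ccnb1, its cyclin partner, had 77.3, 27.8 and 22.4 CPM in Matrigel 1, 2 and 3, against 4.24, 2.79 and 2.54 CPM at day 0 and rose by 3.74 ± 0.45 (log2, adjusted p = 6.92e-05). Bub1, a spindle checkpoint kinase, had 18.3, 7.25 and 7.17 CPM in Matrigel 1, 2 and 3, against 0.314, 0 and 0.343 CPM at day 0 and rose by 5.61 ± 0.58 (log2, adjusted p = 8e-06). Matrigel 1 was the highest library in each, and Matrigel 2 and 3 were close to each other and above day 0.

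The mitosis genes summed to 845, 367 and 318 CPM in Matrigel 1, 2 and 3, against 54.1, 54.3 and 56.9 CPM at day 0. They summed to between 853 and 1054 CPM in the organoids. Each Matrigel sum was below every organoid sum and above every day 0 sum. All 22 were called in Matrigel 3 alone, whose epithelial level was 4.19%, and 21 after subtraction of the organoid profile.

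The promoters of 4 of these genes are shown because their matches recur. Capitals mark CCAAT, the NF-Y box, and TTTGAA, the core of the cell cycle homology region (CHR), on either strand, with no overlap between the motifs. Cdk1 is at chr10:69352913-69353135 (minus strand), Ccnb2, a cyclin chosen after its values were seen, at chr9:70421556-70421736 (minus strand), Ccnb1 at chr13:100786534-100786600 (minus strand) and Bub1 at chr2:127831882-127831942 (minus strand), on GRCm38.p6.
Cdk1: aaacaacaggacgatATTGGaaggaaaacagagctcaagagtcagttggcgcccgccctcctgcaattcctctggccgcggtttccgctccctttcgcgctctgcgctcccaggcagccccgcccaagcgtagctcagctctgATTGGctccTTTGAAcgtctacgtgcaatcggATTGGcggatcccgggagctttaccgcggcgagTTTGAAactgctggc
Ccnb2: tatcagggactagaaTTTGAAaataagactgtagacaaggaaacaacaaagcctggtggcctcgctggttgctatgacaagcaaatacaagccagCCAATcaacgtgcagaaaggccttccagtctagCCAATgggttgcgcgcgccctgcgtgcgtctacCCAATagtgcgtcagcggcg
Ccnb1: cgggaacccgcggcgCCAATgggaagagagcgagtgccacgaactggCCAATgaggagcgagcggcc
Bub1: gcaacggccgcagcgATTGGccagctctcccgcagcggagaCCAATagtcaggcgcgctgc
CCAAT was present in 16 of 18 mitosis promoters (88.9%), against 33.8% of all promoters. TTTGAA was present in 7 (38.9%), against 16% of all.

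DNA replication genes rose less uniformly. Of 21 tested, 13 rose and none fell, with a median log2 change of 1.34. Rrm2, the regulated subunit of ribonucleotide reductase, had 59.7, 23.9 and 24.6 CPM in Matrigel 1, 2 and 3, against 2.59, 2.18 and 3.43 CPM at day 0 and rose by 3.72 ± 0.38 (log2, adjusted p = 1.45e-05). Uhrf1, which maintains DNA methylation at the fork, had 40.3, 12.9 and 15.7 CPM in Matrigel 1, 2 and 3, against 2.59, 1.91 and 3.7 CPM at day 0 and rose by 3.06 ± 0.41 (log2, adjusted p = 9.07e-05). Both were highest in Matrigel 1. Pcna, the sliding clamp, had 115, 73.5 and 79.6 CPM in Matrigel 1, 2 and 3, against 92.4, 92.6 and 102 CPM at day 0. Its groups overlapped (log2 change -0.10, adjusted p = 0.611). The count was 7 after subtraction of the organoid profile and 9 in Matrigel 3 alone. Ccnd1, the G1 cyclin, had 137, 107 and 41.6 CPM in Matrigel 1, 2 and 3, against 67.2, 64.2 and 66.2 CPM at day 0, with Matrigel 3 below day 0 and Matrigel 1 and 2 above it. It was not called (adjusted p = 0.287), but was without Matrigel 3 (log2 change 0.87, adjusted p = 0.0153). CCAAT was present in 13 of 20 replication promoters (65%) and TTTGAA in 2 (10%). Of 17 p53 targets and CDK inhibitors, 7 rose and 1 fell (median log2 change 0.47). Cdkn2b (p15), an inhibitor of Cdk4 and Cdk6, had 37.1, 20.8 and 11.7 CPM in Matrigel 1, 2 and 3, against 3.61, 2.25 and 2.54 CPM at day 0. Gdf15, a stress-induced cytokine, had 35, 20.3 and 21.4 CPM in Matrigel 1, 2 and 3, against 6.12, 5.79 and 7.82 CPM at day 0. After subtraction neither passed, with log2 changes of 0.67 for Cdkn2b and 1.41 for Gdf15 (adjusted p = 0.557 and 0.292), against 3.05 and 1.96 as reported.

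**Figure D3:**
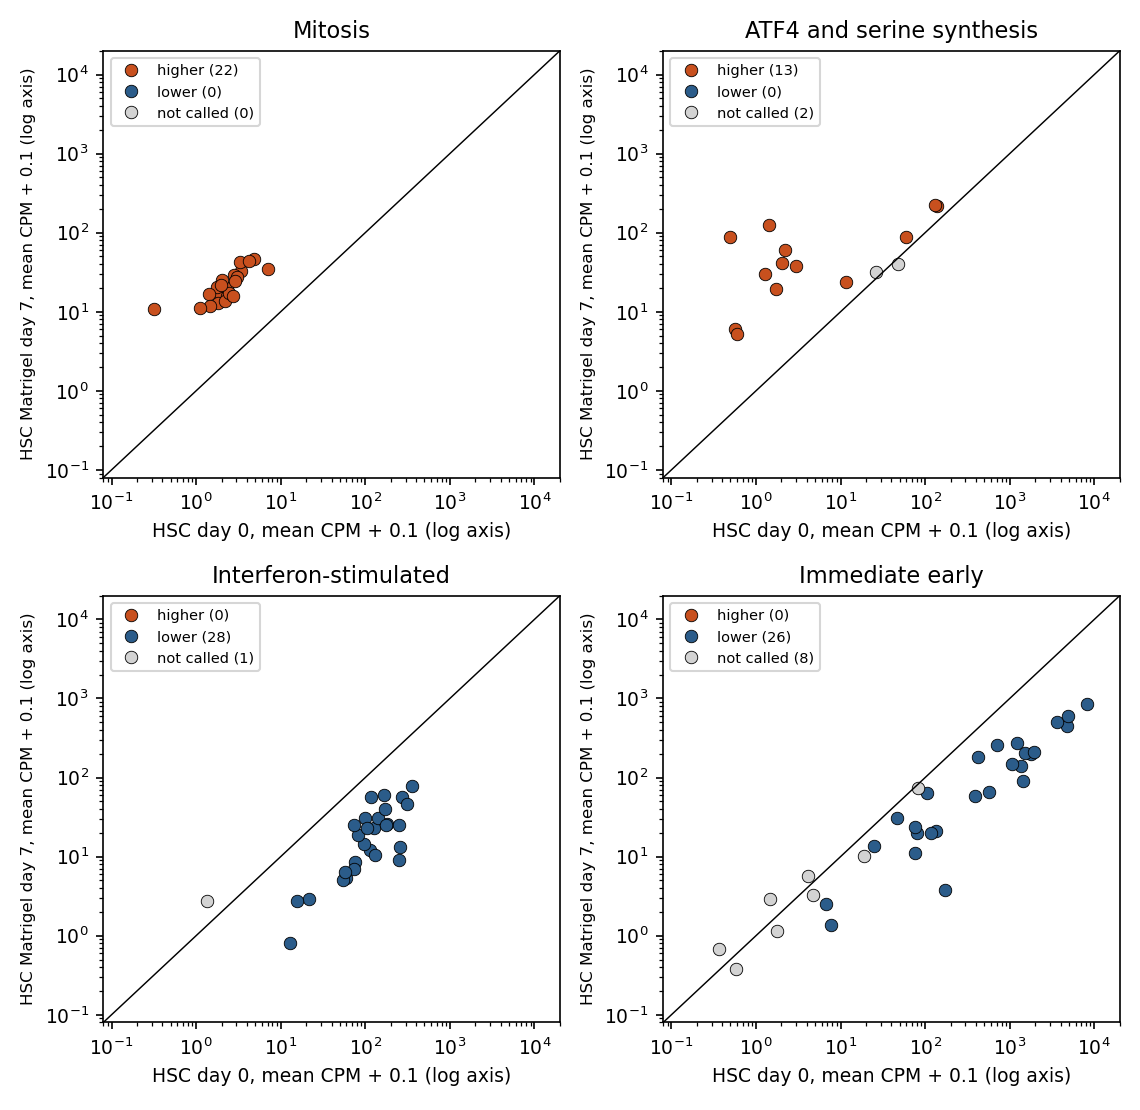
Mean level of each tested gene of 4 groups in HSC from Matrigel at day 7 (vertical axis) and at day 0 (horizontal axis), in CPM with 0.1 added, on log axes; the line marks equal levels, orange genes were higher, blue lower and grey not called. All 22 mitosis genes were called higher and 28 of the interferon-stimulated genes lower.

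Genes under the transcription factor Atf4, which responds to amino acid shortage and drives serine and asparagine synthesis, rose as a group. Of 15 tested, 13 rose and none fell, with a median log2 change of 3.57. Asns, asparagine synthetase, had 115, 81.6 and 70.9 CPM in Matrigel 1, 2 and 3, against 0, 0.817 and 0.343 CPM at day 0 and rose by 7.76 ± 0.42 (log2, adjusted p = 3.25e-08). Phgdh, the first enzyme of serine synthesis, had 215, 122 and 43.2 CPM in Matrigel 1, 2 and 3, against 1.73, 0.681 and 1.58 CPM at day 0 and rose by 6.57 ± 0.61 (log2, adjusted p = 1.73e-05). Phgdh followed the order of the epithelial genes. After subtraction of the organoid profile Phgdh was set to 0 in Matrigel 1, and its day 0 values were brought to or near 0. Its log2 change there (7.03, adjusted p = 0.0612) did not pass and does not give the size of the increase. Asns was high in all 3 libraries, but below its organoid mean of 258 CPM, as Phgdh was below its organoid mean of 655 CPM. Of the 13 increases, 11 were lower in every Matrigel library than in every organoid library, and 2 were higher.

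Several members were at similar levels in the 3 Matrigel libraries. Mthfd2, a mitochondrial folate enzyme, had 65.2, 54.8 and 60.4 CPM in Matrigel 1, 2 and 3, against 1.8, 2.45 and 2.13 CPM at day 0 and rose by 4.82 ± 0.16 (log2, adjusted p = 2.35e-10). Slc7a5, a leucine transporter, had 42.1, 29.6 and 42 CPM in Matrigel 1, 2 and 3, against 2.59, 3.06 and 2.95 CPM at day 0. Its Matrigel values exceeded its organoid mean of 10.2 CPM. Trib3, a pseudokinase induced by Atf4, had 24.1, 16.5 and 17.8 CPM in Matrigel 1, 2 and 3, against 2.35, 1.77 and 0.823 CPM at day 0. Atf4 itself had 227, 201 and 219.8 CPM in Matrigel 1, 2 and 3, against 129, 137 and 148 CPM at day 0 and rose by 0.65 ± 0.12 (log2, adjusted p = 0.000733). These 4 genes were chosen after their values were seen. Ddit3 (Chop), a stress-induced factor, and Psph did not pass (adjusted p = 0.292 and 0.132). All 13 were also called in Matrigel 3 alone, and 8 after subtraction of the organoid profile.

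Cholesterol synthesis, which is controlled by Srebf2 and runs from Hmgcs1 to the late sterol enzymes, rose as a group: 15 of 24 genes were higher and 3 lower, with a median log2 change of 0.74. Msmo1, a sterol demethylase, had 188, 142 and 164 CPM in Matrigel 1, 2 and 3, against 53.8, 47.1 and 59.5 CPM at day 0 and rose by 1.63 ± 0.13 (log2, adjusted p = 4.33e-07). Fdft1, squalene synthase, had 126, 69.2 and 71.7 CPM in Matrigel 1, 2 and 3, against 30.9, 28.2 and 29.2 CPM at day 0. All Matrigel values of both genes exceeded all day 0 values. The Fdft1 log2 change was 1.60, and 1.05 after subtraction of the organoid profile. Ebp, a late sterol isomerase, was among the 3 that fell, with 45.7, 35.1 and 35.1 CPM in Matrigel 1, 2 and 3, against 88, 84.4 and 95.9 CPM at day 0. The count of increases was 13 after subtraction and 14 in Matrigel 3 alone.

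Fatty acid synthesis did not share this. Of 11 genes, 1 rose and 3 fell. Scd2, a desaturase, had 482, 316 and 308 CPM in Matrigel 1, 2 and 3, against 134, 124 and 113 CPM at day 0, while Scd1, its liver isoform, had 58.7, 16.4 and 122 CPM in Matrigel 1, 2 and 3, against 313, 342 and 344 CPM at day 0. Scd1 lost its call when only the 6 libraries compared were fitted (log2 change -2.32, adjusted p = 0.0602, against -2.33 as reported) and had -1.43 in Matrigel 3 alone. In glycolysis and hypoxia, 11 of 32 genes rose and 4 fell, but these counts were 3 and 11 after subtraction of the organoid profile. Slc2a1, the glucose transporter, had 154, 94.1 and 74.6 CPM in Matrigel 1, 2 and 3, against 44.7, 47.2 and 52.7 CPM at day 0. Vegfa, an angiogenic factor, had 7.42, 11.9 and 5.71 CPM in Matrigel 1, 2 and 3, against 2.59, 2.25 and 2.2 CPM at day 0. Both were higher in all Matrigel libraries, and the log2 change of Slc2a1, 1.16 as reported, was 0.07 after subtraction (adjusted p = 0.835) and 0.65 in Matrigel 3 alone. Of 13 genes of the mitochondrial genome, 2 rose. One of them, mt-Cytb, lost its call without Matrigel 2 (adjusted p = 0.168) and without each day 0 library (adjusted p = 0.0899, 0.0827 and 0.129 without replicates 1, 2 and 3).

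Among antioxidant genes 4 of 20 rose and 6 fell, against 19.3% higher and 21.5% lower among all genes. Gpx3, a secreted glutathione peroxidase, had 572, 775 and 966 CPM in Matrigel 1, 2 and 3, against 36, 35.6 and 37.3 CPM at day 0 and rose by 4.42 ± 0.21 (log2, adjusted p = 5.05e-09). Every Matrigel value was above its organoid mean of 158 CPM. Hmox1, heme oxygenase, had 122, 115 and 153 CPM in Matrigel 1, 2 and 3, against 56, 59.8 and 55 CPM at day 0 and rose by 1.20 ± 0.16 (log2, adjusted p = 6.47e-05). Both genes were highest in Matrigel 3. Selenop, which carries selenium and is abundant in hepatocytes, whose markers fell with it, had 522, 641 and 745 CPM in Matrigel 1, 2 and 3, against 3839, 3769.9 and 3741 CPM at day 0 and fell by 2.56 ± 0.20 (log2, adjusted p = 4.79e-07). Their part was not tested. Nqo1, a target of Nrf2, had 9.83, 8.64 and 11.5 CPM in Matrigel 1, 2 and 3, against 7.06, 7.15 and 9.54 CPM at day 0 and did not pass (adjusted p = 0.272).

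Genes that define HSC were mostly lower in Matrigel than at day 0, and 8 of 30 did not pass the test. Of the 30 genes of stellate identity, 20 fell and 2 rose, with a median log2 change of -1.29. Dcn (ENSMUSG00000019929), decorin, which binds collagen fibrils, had 15069, 20760.0 and 27727 CPM in Matrigel 1, 2 and 3, against 53441, 49512 and 45253 CPM at day 0 and fell by 1.21 ± 0.29 (log2, adjusted p = 0.00479). Rgs5, a pericyte regulator of G proteins, had 646, 1078 and 1304 CPM in Matrigel 1, 2 and 3, against 6958, 7247 and 6452 CPM at day 0. Pth1r, the parathyroid hormone receptor, had 42.9, 75.1 and 71 CPM in Matrigel 1, 2 and 3, against 733, 707 and 728 CPM at day 0 and fell by 3.51 ± 0.24 (log2, adjusted p = 1.44e-07). These values were lowest in Matrigel 1, the library with the highest epithelial level, and all lay below day 0. Lrat, counted with the retinoid genes, was also lowest in Matrigel 1, with 377, 545 and 632 CPM in Matrigel 1, 2 and 3, against 2196, 2389 and 2147 CPM at day 0. It fell by 2.10 ± 0.38 (log2, adjusted p = 0.000997).

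Reln, a secreted glycoprotein of quiescent HSC, had 1465, 2388 and 2339.9 CPM in Matrigel 1, 2 and 3, against 2575, 2745 and 2371 CPM at day 0. Its groups overlapped, and it did not pass (log2 change -0.30 ± 0.26, adjusted p = 0.366). Ngfr, the low-affinity nerve growth factor receptor, had 295, 279.7 and 499.6 CPM in Matrigel 1, 2 and 3, against 232, 227 and 211 CPM at day 0, with all Matrigel values above day 0 and an adjusted p of 0.0703 (log2 change 0.69). It did pass with a minimum of 10 CPM (0.82, adjusted p = 0.0256), with only the 6 libraries compared (0.70, adjusted p = 0.0227) and in Matrigel 3 alone (1.18, adjusted p = 0.0118). Tcf21 and Hand2, transcription factors of mesenchyme, were the 2 called higher. Both were above day 0 in every Matrigel library. Adamtsl2 and Cygb, also of the 30 and chosen after their values were seen, were not called. With only the 6 libraries compared both passed as higher (log2 change 2.47, adjusted p = 1.76e-06, and 0.62, adjusted p = 0.0185). Adamtsl2 also passed in DESeq2 (2.41, adjusted p = 0.0359) and with a minimum of 10 CPM (2.59, adjusted p = 0.0457). Tcf21 had 471, 660.5 and 769.7 CPM in Matrigel 1, 2 and 3, against 371, 359 and 375 CPM at day 0 and rose by 0.79 ± 0.19 (log2, adjusted p = 0.00476). Hand2 had 32.8, 65.8 and 57 CPM in Matrigel 1, 2 and 3, against 29.5, 21.1 and 24.8 CPM at day 0 and rose by 1.06 ± 0.23 (log2, adjusted p = 0.00217). The count of 20 decreases was 16 after subtraction of the organoid profile, 15 without Matrigel 1 and 8 in Matrigel 3 alone, where a single library stands for the group. There Lrat had a log2 change of -1.81 (adjusted p = 0.0624), Rgs5 -2.38 (0.0743) and Dcn -0.82 (0.115), against -2.10, -2.76 and -1.21 with all 3 libraries.

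**Figure D4:**
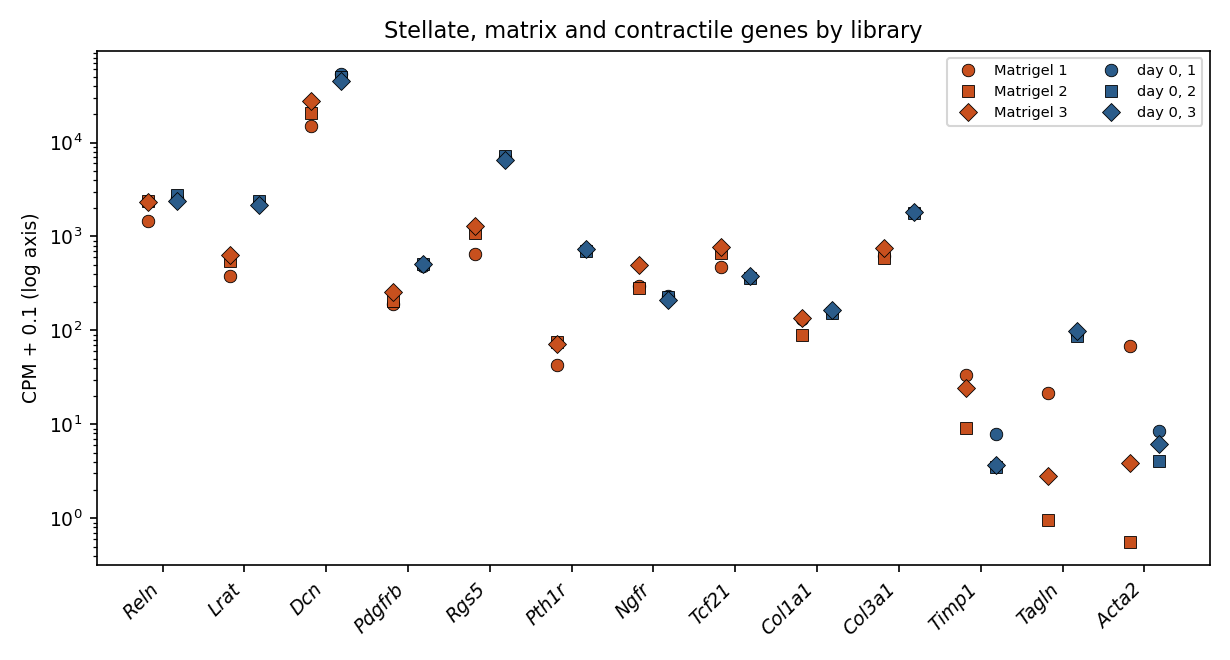
Level of 13 stellate, matrix and contractile genes in each library, in CPM with 0.1 added (log axis), with HSC from Matrigel at day 7 left in orange and HSC at day 0 right in blue; circles, squares and diamonds are replicates 1, 2 and 3. Lrat, Dcn, Rgs5 and Pth1r are lower in all Matrigel libraries, while Tagln and Acta2 spread widely between them.

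The receptors for platelet-derived growth factor were lower. Pdgfrb had 192, 208 and 256 CPM in Matrigel 1, 2 and 3, against 486, 506 and 512 CPM at day 0 and fell by 1.19 ± 0.20 (log2, adjusted p = 0.000348). Pdgfra had 345, 397 and 543 CPM in Matrigel 1, 2 and 3, against 648, 699.9 and 668 CPM at day 0, a fall whose call was lost without Matrigel 1 or 2 (adjusted p = 0.0779 and 0.0778) and without day 0 replicate 2 or 3 (0.0571 and 0.055). Its log2 change was -0.64, and -0.32 with the epithelial level as a covariate and -0.29 in Matrigel 3 alone (adjusted p = 0.175 and 0.444). Of the 6 genes of this family, 2 rose and 2 fell. Des, the intermediate filament desmin, had 82, 84.1 and 104 CPM in Matrigel 1, 2 and 3, against 254, 243 and 273 CPM at day 0 and fell by 1.5 ± 0.19 (log2, adjusted p = 3.65e-05). Hgf had 826, 884 and 1151 CPM in Matrigel 1, 2 and 3, against 1788, 1827 and 1714 CPM at day 0, and its call was lost without Matrigel 1 or 2 (adjusted p = 0.0565 and 0.0576). The Hgf log2 change was -0.89, and -0.59 with the covariate and -0.61 in Matrigel 3 alone (adjusted p = 0.111 and 0.291).

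In the retinoid pathway 12 of 19 genes fell and 3 rose (median log2 change -1.09). Adh1, an alcohol dehydrogenase that oxidises retinol and is abundant in hepatocytes, had 0.802, 0.791 and 1.12 CPM in Matrigel 1, 2 and 3, against 513, 498 and 486 CPM at day 0 and fell by 9.07 ± 0.57 (log2, adjusted p = 5.31e-07). Rbp4, the plasma retinol carrier secreted by hepatocytes, had 34, 25 and 23.6 CPM in Matrigel 1, 2 and 3, against 968, 958 and 952 CPM at day 0. Hepatocyte markers fell with these genes, and their part in the result was not tested. Rdh10, a retinol dehydrogenase, had 88.5, 77.7 and 58.2 CPM in Matrigel 1, 2 and 3, against 41.1, 50.3 and 48 CPM at day 0; its increase was not called without Matrigel 1 (adjusted p = 0.0512) or day 0 replicate 1 (0.069), with the covariate (0.113) or in Matrigel 3 alone (0.368), and after subtraction the log2 change was -0.61 (0.807), against 0.69 as reported. Among lipid droplet genes 6 of 20 fell and 3 rose (median log2 change -0.27), against 21.5% lower and 19.3% higher among all genes. Plin5, a droplet coat protein, had 0.267, 0.330 and 0.0560 CPM in Matrigel 1, 2 and 3, against 18, 18.2 and 22.8 CPM at day 0, and Dgat2, which makes triglyceride, had 10.7, 6.07 and 9.35 CPM in Matrigel 1, 2 and 3, against 148, 148 and 177 CPM at day 0. Fabp5, a fatty acid carrier, had 138, 57.8 and 124 CPM in Matrigel 1, 2 and 3, against 4.71, 6.06 and 8.51 CPM at day 0 and rose by 4.05 ± 0.33 (log2, adjusted p = 1.09e-06).

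Genes of vascular tone, the receptors and effectors by which HSC respond to vasoactive signals, were mostly lower, 11 of 17, while 3 rose (median log2 change -1.28). Rgs4, a regulator of G proteins, had 6.62, 8.77 and 16.9 CPM in Matrigel 1, 2 and 3, against 195, 187 and 180.01 CPM at day 0 and fell by 4.10 ± 0.44 (log2, adjusted p = 3.38e-05). All its Matrigel values lay below day 0. Of 25 transcription factors of HSC, 7 rose and 9 fell (median log2 change -0.26). Gata6, a mesenchymal factor, had 33, 58.4 and 40.4 CPM in Matrigel 1, 2 and 3, against 13.5, 16.2 and 10.7 CPM at day 0 and rose by 1.71 ± 0.24 (log2, adjusted p = 7.88e-05). Nr1h3 (LXR alpha), a sterol sensor, had 6.89, 3.89 and 7.45 CPM in Matrigel 1, 2 and 3, against 40.5, 38.1 and 43.7 CPM at day 0 and fell by 2.74 ± 0.30 (log2, adjusted p = 1.02e-05).

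Matrix genes were lower on balance. Of the contractile genes named below, Tagln and Myl9 were lower in every Matrigel library, and Acta2 was above day 0 only in Matrigel 1. Of 31 fibrillar matrix genes, 18 fell and 4 rose, with a median log2 change of -0.75. Col1a1, the main chain of collagen I, had 133, 90.3 and 137 CPM in Matrigel 1, 2 and 3, against 162, 153 and 165 CPM at day 0. Its groups did not overlap, but it did not pass (log2 change -0.41 ± 0.21, adjusted p = 0.135). Col1a2, its partner chain, had 239, 259.8 and 321 CPM in Matrigel 1, 2 and 3, against 587, 575 and 570.1 CPM at day 0 and fell by 1.07 ± 0.18 (log2, adjusted p = 0.000362). Col3a1 had 614, 588 and 749.7 CPM in Matrigel 1, 2 and 3, against 1828, 1775 and 1819 CPM at day 0 and fell by 1.47 ± 0.25 (log2, adjusted p = 0.000388). Both chains were lower in every Matrigel library than in every day 0 library. Postn, a matricellular protein, had 68.3, 74.2 and 92.1 CPM in Matrigel 1, 2 and 3, against 749, 746 and 749 CPM at day 0 and fell by 3.25 ± 0.21 (log2, adjusted p = 7.38e-08). Plod2, a collagen lysyl hydroxylase, had 85.5, 101 and 112 CPM in Matrigel 1, 2 and 3, against 45, 42.1 and 53.2 CPM at day 0 and rose by 1.10 ± 0.15 (log2, adjusted p = 5.26e-05). P4ha1, a collagen prolyl hydroxylase, had 123, 115 and 143 CPM in Matrigel 1, 2 and 3, against 575, 567 and 576 CPM at day 0 and fell by 2.17 ± 0.14 (log2, adjusted p = 5.73e-08). The enzymes thus moved in opposite directions, without overlap.

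Acta2 had 68.4, 0.462 and 3.75 CPM in Matrigel 1, 2 and 3, against 8.4, 3.95 and 6.04 CPM at day 0. Matrigel 1 stood far above day 0, Matrigel 2 lay below every day 0 library and Matrigel 3 below all day 0 libraries too. No change was called (adjusted p = 0.215). Without Matrigel 1 the log2 change was -1.47 (adjusted p = 0.0875). Tagln, another smooth muscle gene, had 21.3, 0.857 and 2.69 CPM in Matrigel 1, 2 and 3, against 91.6, 87.1 and 99.3 CPM at day 0 and fell by 3.51 ± 0.83 (log2, adjusted p = 0.00799). Myl9, a myosin light chain, had 32, 2.77 and 1.9 CPM in Matrigel 1, 2 and 3, against 152, 150.2 and 158 CPM at day 0 and fell by 3.67 ± 0.86 (log2, adjusted p = 0.00761). Both were highest in Matrigel 1 within the group and below day 0 in every Matrigel library. Without Matrigel 1 the log2 changes were -5.66 for Tagln and -6.03 for Myl9. With only the 6 libraries compared they were -3.48 and -3.65 and did not pass (adjusted p = 0.0659 and 0.0657). Of 22 contractile genes 10 fell and 3 rose (median log2 change -0.63). Timp1, an inhibitor of matrix proteases, had 33.6, 9.1 and 24.2 CPM in Matrigel 1, 2 and 3, against 7.77, 3.4 and 3.64 CPM at day 0 and rose by 2.19 ± 0.44 (log2, adjusted p = 0.00253).

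Elastic fibre genes were mostly lower, 10 of 15, and 4 rose (median log2 change -0.94). Efemp1, a fibulin, had 366, 448 and 482 CPM in Matrigel 1, 2 and 3, against 1934, 2009.9 and 1814 CPM at day 0 and fell by 2.14 ± 0.18 (log2, adjusted p = 6.09e-07). Fbln2, another fibulin, had 119, 74 and 19.9 CPM in Matrigel 1, 2 and 3, against 6.83, 6.74 and 7.82 CPM at day 0 and an organoid mean of 496 CPM. Its log2 change was 3.31, 1.49 in Matrigel 3 alone and -0.61 after subtraction (adjusted p = 0.725). Of 21 basement membrane genes 9 fell and 4 rose (median log2 change -0.53). Lama1, a laminin chain, had 26.1, 29.1 and 36.6 CPM in Matrigel 1, 2 and 3, against 161, 164 and 160.4 CPM at day 0 and fell by 2.39 ± 0.22 (log2, adjusted p = 2.48e-06). No basement membrane gene was called higher after subtraction of the organoid profile. Fn1, fibronectin, had 457, 319.5 and 176 CPM in Matrigel 1, 2 and 3, against 566, 587 and 585 CPM at day 0, and its call was lost without Matrigel 2 or 3 (adjusted p = 0.0639 and 0.0544) or day 0 replicate 3 (0.0595). The Fn1 log2 change was -0.87, -0.84 with only the 6 libraries compared (adjusted p = 0.059) and -1.70 in Matrigel 3 alone. After subtraction, where Matrigel 1 was set to 0, it was -2.72 (adjusted p = 0.123).

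Matrix proteases and their inhibitors were higher in 10 of 24 cases and lower in 5, with a median log2 change of 0.21. Mmp2, a gelatinase of mesenchymal cells, had 368, 471 and 704 CPM in Matrigel 1, 2 and 3, against 201, 214 and 221 CPM at day 0 and rose by 1.29 ± 0.24 (log2, adjusted p = 0.00102). Its organoid mean was 0.664 CPM. Mmp14, which activates Mmp2, had 239, 252 and 308 CPM in Matrigel 1, 2 and 3, against 134, 136 and 136 CPM at day 0 and rose by 0.99 ± 0.15 (log2, adjusted p = 0.000152). Both, chosen after their values were seen, were highest in Matrigel 3. Mmp7, matrilysin, an epithelial protease, had 425, 17.8 and 45.4 CPM in Matrigel 1, 2 and 3, against 0, 0 and 0.0686 CPM at day 0, and only Matrigel 1 exceeded its organoid mean of 90.0 CPM. Timp3 had 130.4, 76.1 and 19.3 CPM in Matrigel 1, 2 and 3, against 352, 363 and 348 CPM at day 0 and fell by 2.24 ± 0.49 (log2, adjusted p = 0.00437), and Adamts4, an aggrecanase, had 5.42, 2.77 and 4.93 CPM in Matrigel 1, 2 and 3, against 37.9, 31.7 and 27.6 CPM at day 0 and fell by 2.88 ± 0.43 (log2, adjusted p = 0.000292). Timp3 did not pass with only the 6 libraries compared (log2 change -2.21, adjusted p = 0.0598) and had -4.18 in Matrigel 3 alone. After subtraction it had -15.24, where Matrigel 1, 2 and 3 were all set to 0.

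Integrins, the receptors for matrix, changed in both directions. Of 17, 7 rose and 5 fell, with a median log2 change of -0.32. Itga8, a mesenchymal chain, had 95.7, 138 and 123 CPM in Matrigel 1, 2 and 3, against 418, 438 and 435 CPM at day 0 and fell by 1.85 ± 0.23 (log2, adjusted p = 3.7e-05). Itga9 had 38.5, 48.9 and 52.4 CPM in Matrigel 1, 2 and 3, against 188, 193 and 169 CPM at day 0 and fell by 1.97 ± 0.19 (log2, adjusted p = 2.48e-06). Itgb4, the chain of epithelial hemidesmosomes, had 36.6, 24.7 and 4.65 CPM in Matrigel 1, 2 and 3, against 1.41, 1.91 and 0.274 CPM at day 0, and Itga2 had 33.7, 14.4 and 4.26 CPM in Matrigel 1, 2 and 3, against 0, 0.408 and 0.137 CPM at day 0. These last followed the order of the epithelial genes. After subtraction of the organoid profile Itgb4 had a log2 change of 1.77 (adjusted p = 0.514) and Itga2 of 0.96 (0.679), against 4.19 and 6.46 as reported, and 2 integrins were called higher.

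Genes of the response to EGF and FGF changed in both directions. Of 28 tested 8 fell and 6 rose (median log2 change 0.00), near the 21.5% lower and 19.3% higher among all genes. Spry2, an inhibitor induced by receptor tyrosine kinases, had 58.7, 61.2 and 55.3 CPM in Matrigel 1, 2 and 3, against 325, 346 and 317 CPM at day 0 and fell by 2.49 ± 0.34 (log2, adjusted p = 0.000161). Dusp6, a phosphatase of ERK, had 203, 175 and 199.6 CPM in Matrigel 1, 2 and 3, against 641, 645 and 646 CPM at day 0 and fell by 1.74 ± 0.12 (log2, adjusted p = 1.34e-07). Dusp5, another phosphatase of ERK, had 88.9, 75.3 and 121 CPM in Matrigel 1, 2 and 3, against 50.8, 57.9 and 65.9 CPM at day 0 and rose by 0.72 ± 0.18 (log2, adjusted p = 0.00704). Without day 0 replicate 1 the Dusp5 call was lost (log2 change 0.58, adjusted p = 0.0533). The groups did not overlap in Spry2, Dusp6 or Dusp5. The Spry2 decrease was as large after subtraction of the organoid profile but did not pass (log2 change -2.75, adjusted p = 0.0562). Among 24 Hippo pathway genes 10 fell and 2 rose (median log2 change -0.20). Ccn1, a matricellular target of Yap, had 412, 230.1 and 185 CPM in Matrigel 1, 2 and 3, against 1018, 1027 and 993 CPM at day 0 and fell by 1.88 ± 0.23 (log2, adjusted p = 2.7e-05), while Ankrd1, another target, had 139.5, 99.4 and 18 CPM in Matrigel 1, 2 and 3, against 0.0785, 0 and 0.686 CPM at day 0 and rose by 8.31 ± 1.07 (log2, adjusted p = 0.000229). Ankrd1 was highest in Matrigel 1. After subtraction only Matrigel 2 kept Ankrd1 counts above 0, and every day 0 library was set to 0. Its log2 change there (9.30, adjusted p = 0.138) did not pass and does not give the size of the increase. The Ccn1 log2 change was -4.12 after subtraction, with Matrigel 1 set to 0. Ccn2 had 302, 114 and 86.4 CPM in Matrigel 1, 2 and 3, against 391, 418 and 408 CPM at day 0, and its call was lost without Matrigel 2 (adjusted p = 0.0798), with only the 6 libraries compared (0.0983) and with no low-count filter (0.0532). Its log2 change was -1.28, -2.01 without Matrigel 1, -2.20 with the covariate and -2.22 in Matrigel 3 alone. After subtraction, where Matrigel 1 was set to 0, it was -4.62 (adjusted p = 0.0557).

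Notch genes fell in 7 of 15 cases and rose in 1 (median log2 change -0.97). Heyl, a Notch target of mural cells, had 1.2, 0.725 and 2.07 CPM in Matrigel 1, 2 and 3, against 128, 123 and 149.96 CPM at day 0 and fell by 6.60 ± 0.45 (log2, adjusted p = 3.43e-07). Dll4, a Notch ligand of endothelium, had 2.34, 5.47 and 1.68 CPM in Matrigel 1, 2 and 3, against 48.6, 48.5 and 57 CPM at day 0 and fell by 4.02 ± 0.58 (log2, adjusted p = 0.000206). Endothelial markers fell with it, and their part was not tested. In the BMP group 10 of 17 fell and 1 rose (median log2 change -1.16). Bmp10, a ligand made by HSC in the liver, had 19.7, 29.7 and 22.6 CPM in Matrigel 1, 2 and 3, against 139, 141 and 123 CPM at day 0 and fell by 2.48 ± 0.29 (log2, adjusted p = 2.84e-05). Bmp4 had 24.5, 26.8 and 26.1 CPM in Matrigel 1, 2 and 3, against 161, 163 and 165 CPM at day 0 and fell by 2.65 ± 0.21 (log2, adjusted p = 4.12e-07). All Matrigel values of these BMP genes lay below day 0.

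Of 20 TGF-beta genes 5 rose and 3 fell (median log2 change 0.08), near the 19.3% higher and 21.5% lower among all genes. Id1, a target of BMP signals, had 179, 135 and 148 CPM in Matrigel 1, 2 and 3, against 35.1, 35.3 and 39.7 CPM at day 0 and rose by 2.08 ± 0.24 (log2, adjusted p = 2.05e-05). Bambi, a decoy receptor that dampens TGF-beta signals in HSC, had 149, 193 and 245 CPM in Matrigel 1, 2 and 3, against 338, 307 and 363 CPM at day 0 and fell by 0.77 ± 0.17 (log2, adjusted p = 0.00331). Its log2 change was -0.47 with the covariate and -0.44 in Matrigel 3 alone, where it did not pass (adjusted p = 0.123). Of 24 Wnt genes 5 rose and 6 fell (median log2 change 0.37), also near the shares of all genes. Axin2, a general Wnt target, had 6.62, 2.51 and 1.57 CPM in Matrigel 1, 2 and 3, against 3.92, 5.58 and 2.81 CPM at day 0; the groups overlapped (adjusted p = 0.793). Wnt2, a ligand of sinusoidal endothelium, had 0.602, 0.593 and 0.896 CPM in Matrigel 1, 2 and 3, against 15.6, 16.1 and 11.9 CPM at day 0 and fell by 4.35 ± 0.39 (log2, adjusted p = 1.42e-06). Endothelial markers fell with it too, and their part was not tested.

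Inflammatory genes changed in both directions. Of 24 NF-kappa-B genes 11 fell and 8 rose (median log2 change -0.05). Nfkbiz, an atypical inhibitor, had 113, 68.8 and 112 CPM in Matrigel 1, 2 and 3, against 1216, 1183 and 1144 CPM at day 0 and fell by 3.59 ± 0.33 (log2, adjusted p = 3.72e-06). Tnf had 22.8, 12.2 and 8.4 CPM in Matrigel 1, 2 and 3, against 4.16, 2.11 and 3.77 CPM at day 0 and rose by 2.11 ± 0.52 (log2, adjusted p = 0.00543), and Tnfaip2 had 38.8, 20.9 and 16.7 CPM in Matrigel 1, 2 and 3, against 5.73, 4.7 and 6.17 CPM at day 0. In Matrigel 3 alone Tnf did not pass (log2 change 1.34, adjusted p = 0.169). Tnfaip2 had a log2 change of 2.20, and 1.46 after subtraction. Among chemokines 9 of 25 rose and 7 fell (median log2 change 0.97). Ccl4, which attracts myeloid cells, had 34.7, 37.1 and 56.4 CPM in Matrigel 1, 2 and 3, against 4.0, 3.74 and 2.61 CPM at day 0. Ccl6, also a myeloid chemokine, had 118, 51.3 and 164 CPM in Matrigel 1, 2 and 3, against 13.3, 13.8 and 11.4 CPM at day 0. Both were chosen after their values were seen. Their organoid means were 0.166 and 1.08 CPM. Ccl20, which attracts cells through Ccr6, had 35.8, 17.1 and 15.7 CPM in Matrigel 1, 2 and 3, against 0, 0 and 0 CPM at day 0. It was at 0 counts in every day 0 library, so it was at least 320-fold higher against a floor of 3 counts over the day 0 group. Its organoid mean was 67.6 CPM, and every Matrigel library lay below every organoid library. In the complement group 13 of 16 fell and none rose (median log2 change -2.00). Hepatocytes are a main source of complement, and their markers fell too, 29 of 30, with sums of 562, 421 and 607 CPM in Matrigel 1, 2 and 3, against 35089, 34728 and 36100.0 CPM at day 0. Their part in the result was not tested. C1s1, a protease of the classical pathway, had 40.0, 43.9 and 60.7 CPM in Matrigel 1, 2 and 3, against 462, 469 and 483 CPM at day 0 and fell by 3.28 ± 0.21 (log2, adjusted p = 6.43e-08). Cd55, which protects cells from complement, had 9.36, 11 and 2.97 CPM in Matrigel 1, 2 and 3, against 81.9, 78.1 and 80.1 CPM at day 0.

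Macrophage genes rose and fell within the same libraries. Macrophages of the liver, Kupffer cells, express Clec4f and Timd4, and lipid-associated macrophages express Gpnmb and Trem2. Of 18 macrophage markers 8 rose and 5 fell (median log2 change -0.08). Lyz2 (ENSMUSG00000069516), lysozyme, had 1978, 2012 and 2769 CPM in Matrigel 1, 2 and 3, against 170.3, 170.1 and 177 CPM at day 0 and rose by 3.72 ± 0.48 (log2, adjusted p = 0.00014). Cd68, a lysosomal glycoprotein, had 112, 124 and 162 CPM in Matrigel 1, 2 and 3, against 17, 23 and 16 CPM at day 0 and rose by 2.83 ± 0.56 (log2, adjusted p = 0.00282). Itgam (CD11b) had 9.29, 7.71 and 15 CPM in Matrigel 1, 2 and 3, against 1.88, 0.681 and 1.1 CPM at day 0 and rose by 3.14 ± 0.47 (log2, adjusted p = 0.00014). The highest value of each was in Matrigel 3, the library with the lowest epithelial level. Adgre1 (F4/80) had 49.3, 65.9 and 67.4 CPM in Matrigel 1, 2 and 3, against 20.7, 26.8 and 24.8 CPM at day 0; without day 0 replicate 1 it no longer passed (adjusted p = 0.0769), nor without day 0 replicate 3 (0.0519), with no low-count filter (0.0551), with the covariate (0.0558) or in Matrigel 3 alone (0.0642).

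Clec4f, a Kupffer cell lectin, had 0, 0.396 and 0.224 CPM in Matrigel 1, 2 and 3, against 230.1, 240.4 and 248 CPM at day 0 and fell by 10.10 ± 0.39 (log2, adjusted p = 1.43e-07). Cd5l, an apoptosis inhibitor of tissue macrophages, had 6.42, 14.2 and 5.82 CPM in Matrigel 1, 2 and 3, against 101, 116 and 106 CPM at day 0 and fell by 3.61 ± 0.52 (log2, adjusted p = 0.000652). Timd4, a receptor for dying cells, had 0, 0.0659 and 0 CPM in Matrigel 1, 2 and 3, against 7.06, 6.19 and 4.32 CPM at day 0. Timd4 was thus at 0 in Matrigel 1 and 3, and Clec4f in Matrigel 1. Csf1r, the receptor for the macrophage growth factor, had 94.2, 94.8 and 109 CPM in Matrigel 1, 2 and 3, against 90.9, 86.8 and 73 CPM at day 0 and did not pass (adjusted p = 0.66). C1qa, a complement component of resident macrophages, had 31, 32.9 and 31.6 CPM in Matrigel 1, 2 and 3, against 58.4, 52.6 and 64.7 CPM at day 0 and did not pass either (adjusted p = 0.558), although its groups did not overlap. With only the 6 libraries compared the C1qa decrease was of the same size and passed (log2 change -0.85, adjusted p = 0.000269, against -0.87 as reported). Timd4, Csf1r and C1qa were chosen after their values were seen. The 18 markers summed to 2798, 2827 and 3645 CPM in Matrigel 1, 2 and 3, against 1110.2, 1152 and 1161 CPM at day 0 and at most 559.7 CPM in the organoids. Ptprc (CD45), common to blood cells, had 8.76, 13 and 16.1 CPM in Matrigel 1, 2 and 3, against 11.1, 11.2 and 12.8 CPM at day 0 and did not pass (adjusted p = 0.856).

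The largest increases with every Matrigel library above every organoid library included several genes known from macrophages. Gpnmb, a lysosomal and membrane glycoprotein, had 202, 235 and 274 CPM in Matrigel 1, 2 and 3, against 1.26, 1.23 and 0.412 CPM at day 0 and rose by 7.95 ± 0.43 (log2, adjusted p = 5.12e-08). Adam8, a metalloprotease of myeloid cells, had 82.4, 99.3 and 99.8 CPM in Matrigel 1, 2 and 3, against 0.471, 1.02 and 0.755 CPM at day 0 and rose by 6.94 ± 0.63 (log2, adjusted p = 1.03e-05). Gpnmb and Adam8 were at or below 1.26 CPM in every day 0 library. Clec4d, a myeloid lectin, had 22.1, 24 and 31.1 CPM in Matrigel 1, 2 and 3, against 0.706, 0.272 and 0.343 CPM at day 0 and rose by 5.88 ± 0.72 (log2, adjusted p = 3.8e-05). Trem2, a lipid receptor, had 32, 39.6 and 49.6 CPM in Matrigel 1, 2 and 3, against 1.96, 1.77 and 1.65 CPM at day 0 and rose by 4.50 ± 0.49 (log2, adjusted p = 1.11e-05). Both genes were highest in Matrigel 3. Tmem154, a membrane protein, had 12.6, 18.1 and 28.6 CPM in Matrigel 1, 2 and 3, against 0, 0.749 and 0.549 CPM at day 0. Spon1, a secreted matrix protein, had 207, 241 and 306 CPM in Matrigel 1, 2 and 3, against 6.98, 7.22 and 3.84 CPM at day 0 and rose by 5.40 ± 0.59 (log2, adjusted p = 5.73e-05). No day 0 library overlapped these values. Of 18 lysosomal genes 6 rose and 4 fell, and Ctsd, cathepsin D, had 2326, 2261 and 2844 CPM in Matrigel 1, 2 and 3, against 824, 777 and 792 CPM at day 0. Which cells in these libraries held these transcripts was not tested.

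**Figure D5:**
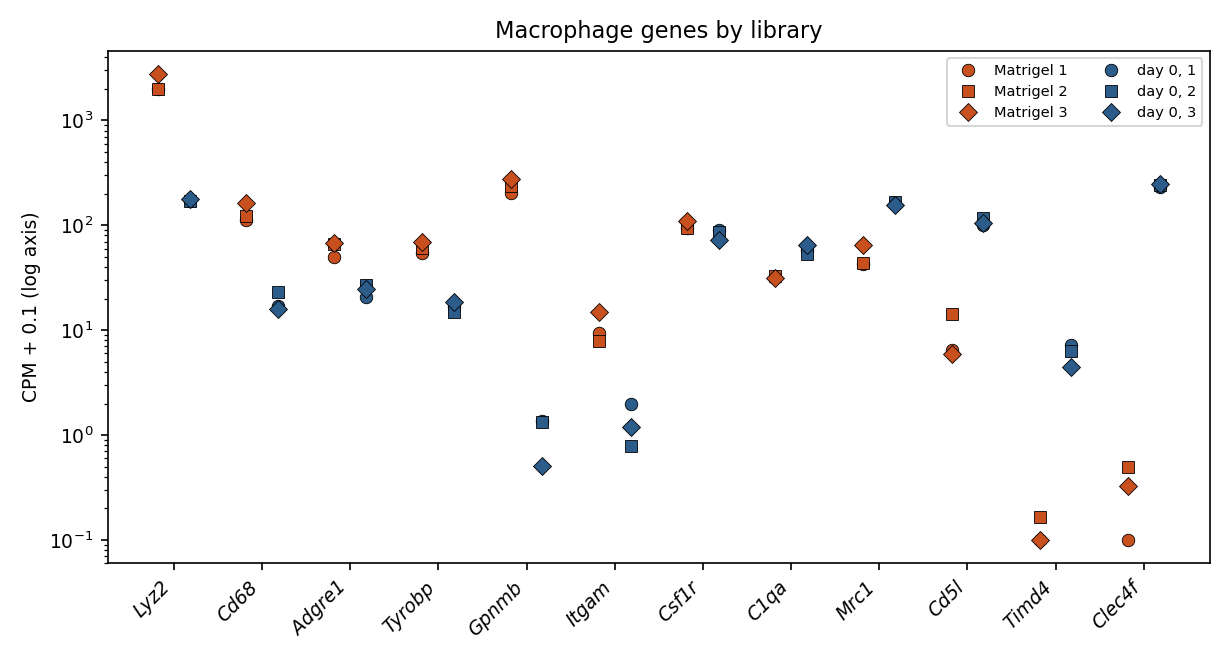
Level of 12 macrophage genes in each library, in CPM with 0.1 added (log axis), with HSC from Matrigel at day 7 left in orange and HSC at day 0 right in blue; circles, squares and diamonds are replicates 1, 2 and 3. Lyz2, Cd68, Gpnmb and Itgam are higher in all Matrigel libraries, and Clec4f, Timd4 and Cd5l are lower.

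Transcripts of hepatocytes and endothelium were far lower in Matrigel. Of 30 hepatocyte markers 29 fell and none rose, with a median log2 change of -9.02. They summed to 562, 421 and 607 CPM in Matrigel 1, 2 and 3, against 35089, 34728 and 36100.0 CPM at day 0. Alb (ENSMUSG00000029368), albumin, had 26.3, 23.3 and 20.8 CPM in Matrigel 1, 2 and 3, against 8735, 8502 and 8917 CPM at day 0 and fell by 8.53 ± 1.29 (log2, adjusted p = 0.000634). Every Matrigel value lay below every day 0 value. The major urinary protein genes Mup22, Mup2, Mup1 and Mup3, and Apoa5, an apolipoprotein, were at 0 counts in every Matrigel library. Against a floor of 3 counts over the Matrigel group, Apoa5, with 559.8, 587 and 603 CPM at day 0, was at least 9330-fold lower. Mup9, whose reads may be divided among near-identical genes, had 0.0669, 0 and 0 CPM in Matrigel 1, 2 and 3, against 9821, 8962 and 7675 CPM at day 0. The Mup genes are close copies, so their separate values are uncertain. Ttr, transthyretin, had 77.9, 12.8 and 24 CPM in Matrigel 1, 2 and 3, against 1210.2, 1154 and 1308 CPM at day 0. Hp, haptoglobin, had 19.3, 11.3 and 5.49 CPM in Matrigel 1, 2 and 3, against 285, 287 and 308 CPM at day 0. Serpina1a, an alpha-1 antitrypsin with near-identical copies, had 38.4, 23.9 and 41.7 CPM in Matrigel 1, 2 and 3, against 1081, 1066 and 1129 CPM at day 0. These 3 stayed above 0 in every Matrigel library. The Hp log2 change was -4.62, and -8.42 after subtraction of the organoid profile, where Matrigel 1 was set to 0.

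All 18 endothelial markers fell (median log2 change -6.52). Pecam1 (CD31) had 1.4, 2.31 and 1.9 CPM in Matrigel 1, 2 and 3, against 50.9, 60.2 and 58.2 CPM at day 0 and fell by 4.90 ± 0.33 (log2, adjusted p = 1.05e-07). Stab2, a scavenger receptor of sinusoidal endothelium, had 0.334, 0.857 and 1.23 CPM in Matrigel 1, 2 and 3, against 163, 161 and 152 CPM at day 0 and fell by 7.56 ± 0.30 (log2, adjusted p = 8.29e-09). Clec4g, a sinusoidal lectin, had 0, 0.198 and 0.0560 CPM in Matrigel 1, 2 and 3, against 362, 386 and 397 CPM at day 0, and Robo4 was at 0 counts in every Matrigel library and had 33.3, 33.8 and 31.3 CPM at day 0. The summed level of this group in Matrigel, 1192, 1459 and 1844 CPM against 4345, 4297 and 4305 CPM at day 0, was mostly Eng, which HSC also express. Of 10 portal fibroblast markers 6 fell and none rose (median log2 change -1.09). Of 8 mesothelial markers 4 fell and 3 rose. Upk3b, a uroplakin of mesothelium, had 0.134, 0.0659 and 0 CPM in Matrigel 1, 2 and 3, against 12.8, 14 and 15.6 CPM at day 0. It was not called in Matrigel 3 alone (log2 change -10.74, against -7.63 as reported). Krt19, given above with the epithelial genes, and Wt1, a transcription factor, were among the 3 that rose. Wt1 had 10.5, 14.5 and 18.9 CPM in Matrigel 1, 2 and 3, against 7.22, 8.37 and 8.64 CPM at day 0. Its increase (log2 change 0.87, adjusted p = 0.0431) was not called without any 1 of the day 0 libraries. Of 12 lymphocyte and 10 neutrophil markers, 3 each had enough counts to be tested, and 1 of each fell. They summed to at most 2.58 CPM and 4.75 CPM in any Matrigel library.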

How the data were processed

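Bulk RNA-seq libraries were made with Smart-seq2 and Nextera XT, per the labels' protocols. The authors deposited a table of estimated counts per gene, not scaled between libraries, and kallisto 0.46.1, DESeq2 1.36.0 and GRCm39 are listed, without roles, in the submitters' processing notes. No source used here gives the annotation, the strand setting or the step from transcripts to genes. Smart-seq2 does not keep strand, so overlapping and antisense genes cannot be told apart.

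Counts were rounded and tested with edgeR 4.0.16 (R 4.3.3): TMM scaling, filterByExpr, a robust quasi-likelihood test and Benjamini-Hochberg adjustment over all genes tested, with a threshold of 0.05. All 12 HSC libraries entered one fit and shared one estimate of the spread. Each standard error came from the F statistic, as the absolute log2 change over its root. An increase was placed below the organoids where every Matrigel library was below every organoid library, a stricter rule than the organoid mean first planned. CPM, counts per 1e+06, used TMM factors over all 18 libraries. A gene at 0 counts in a whole group was given a floor of 3 counts over that group, which covers counting error only. The test was tried on simulated counts first. Total counts per library are given above and set the precision of low genes. No pair of libraries in a group had identical values or agreed within sampling noise (chi-square per degree of freedom of at least 5.90).

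The members and the 45 gene lists were chosen with earlier results of these data known. Genes were named by this rule: up to 2 called members per list and direction with the largest change among those with a mean of at least 10 CPM and no overlap between the groups, the largest increases and decreases over all genes, and a set of stellate, epithelial and pathway genes whatever their result. Some genes that the rule names are not reported here. Genes outside it are said to be chosen after their values were seen. The alternatives were RLE scaling, other filters on low counts, only the 6 libraries compared, DESeq2 1.42.0, a replicate block, the epithelial level as a covariate, subtraction of the organoid profile, TMM without organoid genes, and leaving out each library. Promoters were read from RefSeq tables on GRCm38.p6, which is not the build of the counts, and matched by gene symbol.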

Additional observations from a re-analysis of the deposited data

How the results depend on the processing

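Over 16 other settings, 1588 to 3329 genes were called higher and 2508 to 4104 lower, against 3279 and 3667 as reported. The counts of increases that moved by over 1.5 times were 1783 after subtraction of the organoid profile and 1588 with Matrigel 3 alone. Leaving out 1 library gave 2245 to 3015 higher and 3135 to 3558 lower. The epithelial level was measured with organoid minimums of 50 and 200 CPM as well and stayed within the spread between markers. After subtraction, the log2 change reversed to -0.61 for Rdh10, -0.61 for Fbln2, -3.79 for Cxcl5, -7.61 for Krt19 and -1.97 for Ccnd1. In each of these genes Matrigel 1 lay below the part subtracted and was set to 0, and Krt19 was set to 0 in Matrigel 1, 2 and 3. These values therefore do not measure a change in HSC. With the covariate it was -0.13 for Acta2 and -0.23 for Ccnd1, and with Matrigel 3 alone -0.68 for Acta2 and -0.65 for Ccnd1. Leaving out 1 library in turn gave -1.47 (without Matrigel 1) to 2.54 for Acta2. Uncalled genes that also changed sign were Pcna (0.035 with a minimum of 10 CPM, and with 1 library left out -0.31 to 0.02, the last without Matrigel 2), Ptprc (-0.12 without Matrigel 3 to 0.33) and Axin2 (-1.01 to 0.14, the last without Matrigel 3, and 0.03 without day 0 replicate 2). Apart from the subtraction and the left-out libraries, which change the counts by construction, the cause was not tested. With the replicate number as a block, 2873 genes were called higher and 3461 lower, of which 2822 and 3433 were shared with the calls reported. Same-numbered libraries had correlated deviations of -0.019, 0.034 and 0.013, so the numbers share no pairing that the data show.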

Other observations

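Among genes with at least 10 CPM, 2 were at least 4 times higher in 1 Matrigel library than in every other Matrigel, day 0 and organoid library. Both were in Matrigel 1: Acta2, given above, and Muc1, a membrane mucin of epithelium, which had 78.8, 3.3 and 9.46 CPM in Matrigel 1, 2 and 3, against 0.706, 0.272 and 1.65 CPM at day 0. Its organoid mean was 9.19 CPM, below the value in Matrigel 1. No gene met this rule in Matrigel 2 or 3. Muc1 was chosen by this rule after the values were seen, while Acta2 was also in the set named whatever its result.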
